A study of Mus musculus with 232 samples.

Results

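The 60 single Dgcr8-/- mouse embryonic stem cells (ESCs) that received no miRNA mimic were compared with 16 single wild-type (WT) ESCs, which gives 76 of the 182 cells of the series. Groups were taken from the genotype given in the labels, and the runs of a cell were added. In 3 cells the name alone would have placed them with the mock cells, but their labels give Dgcr8-/- plus miR-294, so they were left out. The Dgcr8-/- cells were mock transfected, and both groups were grown with LIF and 2 inhibitors of MEK and GSK3 in naive culture conditions. Cells were captured on a microfluidic chip 24 h after transfection, and capture sites with dead or several cells were discarded by eye by the authors. The labels of the WT cells carry the name V6.5, the parental line of the knockout cells. They do not state cell by cell whether WT cells were mock transfected. The series also holds 58 Dgcr8-/- cells given miR-294 and 48 given let-7, whose values are quoted only beside those of the mock and WT cells.

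Each group came from 1 culture on 1 chip, as far as the sources tell. Cells of a culture are not replicates of a genotype, so no test was run and no p-value is given. Culture, chip and genotype cannot be told apart in any difference described here. What follows are levels, in normalised counts per cell, their spread over cells, and the ratio of the 2 group means. A gene was counted as higher or lower where that ratio, after adding 1 count to both means, reached 2-fold.

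DGCR8 binds primary miRNA transcripts and, with the nuclease DROSHA, cuts out the hairpin from which DICER makes the mature miRNA. Cells without it lack canonical miRNAs, which otherwise pair through bases 2 to 8, the seed, with sites in 3′ untranslated regions (UTRs) and lower the level and translation of the mRNA. In mouse ESCs much of the miRNA pool comes from the miR-290 cluster, whose main seed is shared with the miR-302 family and resembles that of the miR-17 family. These miRNAs are known for shortening the G1 phase, through inhibitors of the cyclin E and CDK2 step. The let-7 family belongs to differentiated cells and is held back in ESCs by LIN28.

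The seeds on which the sequence comparisons turn are shown first, because the families differ by few bases. Capitals mark bases 2 to 8 of the mature miRNA, as given by RefSeq.
miR-294-3p: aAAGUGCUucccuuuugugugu
miR-291a-3p: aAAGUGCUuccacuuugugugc
miR-302d-3p: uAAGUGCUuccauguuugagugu
miR-17-5p: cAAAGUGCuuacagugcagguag
miR-20a-5p: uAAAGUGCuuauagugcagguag
miR-19b-3p: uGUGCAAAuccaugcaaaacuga
let-7c-5p: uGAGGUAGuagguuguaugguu
The first 3 share one seed. The miR-17 and miR-20a seed holds the same AAGUGC one base later. The let-7c and miR-19b seeds are different sequences.

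The depth of the groups overlapped. Totals ran from 514728 to 3564131 expected counts in Dgcr8-/- cells and from 513521 to 3260922 in WT cells, with a median of 7784 and 7734 genes detected. Mitochondrially encoded genes took a median of 3.68% of counts in Dgcr8-/- cells (0.00602 to 15.8%) and 2.73% in WT cells (0.621 to 4.21%). The 7 ESC markers fixed for the check (Pou5f1, Nanog, Sox2, Esrrb, Zfp42, Dppa5a and Tdgf1) were all counted in both groups, with a summed level of 1904 to 14786 in Dgcr8-/- cells and 3055 to 10315 in WT cells. Of 16 fibroblast markers, 7 had no count in the Dgcr8-/- cells, among them Col1a2, Col3a1, Pdgfra and Thy1, and the median sum was 0 in both groups. The summed level of 10 trophoblast markers had a median of 167 in Dgcr8-/- cells (10.1 to 6019) and 85.9 in WT cells (7.66 to 488), and Cdx2 was at 0 in the Dgcr8-/- cells. For 14 extraembryonic endoderm markers the medians were 0 and 1.74, with Gata6 and Sox17 at 0 in both groups, and for 10 neural markers they were 40.2 and 48.3.

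The Dgcr8-/- cell least like the others is called here the cell that stood apart. Its profile correlated with those of the other Dgcr8-/- cells at a mean r of 0.416, against a median of 0.554 for the group, and it held the 0.00602% mitochondrial share. It also gave the highest trophoblast sum, through Krt8. The largest values of several keratin, claudin and cathepsin genes came from this cell, and such results are given with and without it. The next lowest cell had a mean r of 0.437 and a mitochondrial share of 11.6%. Without both cells 3247 genes were higher and 1033 lower, and several lists are given without both as well.

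Dgcr8 itself (ENSMUSG00000022718, GRCm38 chr16:18253948-18289246, minus strand) had a mean of 55.6 normalised counts in Dgcr8-/- cells (0 to 887, median 12.6) and 128 in WT cells (2.47 to 638, median 62). The ranges overlapped almost entirely. The count covers the whole gene, so reads outside the deleted part are included, and the labels do not say which part was deleted. This gene therefore gives only a weak check of the labels.

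The 4 genes proposed as markers of the contrast were set with earlier results of these data known. That they separated most cells is a description and no independent support. Lin28a (ENSMUSG00000050966, GRCm38 chr4:134003330-134018841, minus strand) encodes the RNA-binding protein that blocks let-7 maturation. It had at least 1 count in 3 of 60 Dgcr8-/- cells (5%, exact binomial 95% interval 1.04 to 13.9%) and in 15 of 16 WT cells (93.8%, 69.8 to 99.8%). These intervals, like all others here, cover counting error only. Those of ratios of summed counts, given below, take each read as independent. Reads of the same cell are not, so these are too narrow. Its level was 1.9 in Dgcr8-/- cells (median 0, highest 99.9) and 281 in WT cells (0 to 541, median 282), so that 12 of 16 WT cells lay above every Dgcr8-/- cell. Lin28a was also near 0 in let-7 cells, with a mean of 1.69, and stood at 41.8 in miR-294 cells. 

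Syne2 (ENSMUSG00000063450, chr12:75818134-76110926, plus strand), which codes for a giant nesprin of the outer nuclear membrane, lay the other way. It averaged 336 in Dgcr8-/- cells (0 to 1444, median 246) and 2.02 in WT cells (0 to 17.3, median 0). In 56 of 60 Dgcr8-/- cells Syne2 was above the highest WT cell. It ran from 0 to 783 in miR-294 cells and from 0 to 1740 in let-7 cells. Anxa2 (ENSMUSG00000032231, chr9:69453620-69491795, plus strand), a calcium-dependent membrane-binding annexin, had medians of 1579 (0 to 5985) and 22.1 (0 to 255) and was 35.7-fold higher, with 55 of 60 Dgcr8-/- cells above every WT cell. Anxa2 ran from 0 to 4345 in miR-294 cells and from 2.47 to 8220 in let-7 cells. Values of both genes above the WT range were thus also found in cells given a mimic. The part of missing miRNAs in these differences was not tested. Sub1 (ENSMUSG00000022205, chr15:11981339-11996983, minus strand), a transcriptional coactivator that binds single-stranded DNA, had medians of 210 (22.7 to 902) and 692 (343 to 1779) and was 3.52-fold lower. In 50 of 60 Dgcr8-/- cells it lay below the lowest WT cell.

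Over all 11186 genes kept (a mean of at least 5 counts, before scaling, over all 182 cells), 3390 (30.3%) were at least 2-fold higher in Dgcr8-/- cells and 978 (8.74%) at least 2-fold lower. The median log2 ratio of all genes was 0.35. Each list is read beside that value, and its counts beside the shares of 30.3% higher and 8.74% lower. The excess of higher genes depends on scaling: they were 77.6% of the genes past 2-fold as reported, 66.4% with TMM, and 60.7% when the median gene was set to 0. The filter also favours genes of the knockout background, since 166 of the 182 cells are Dgcr8-/- and a gene counted only in WT cells needs a WT mean of 56.9 to pass. Lower counts gave larger ratios. Among 2984 genes with a mean of 5 to 20 over both groups, 43.9% were higher and 15.3% lower, whereas among 595 genes at 500 or more the shares were 9.75% and 2.69%.

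**Figure D1:**
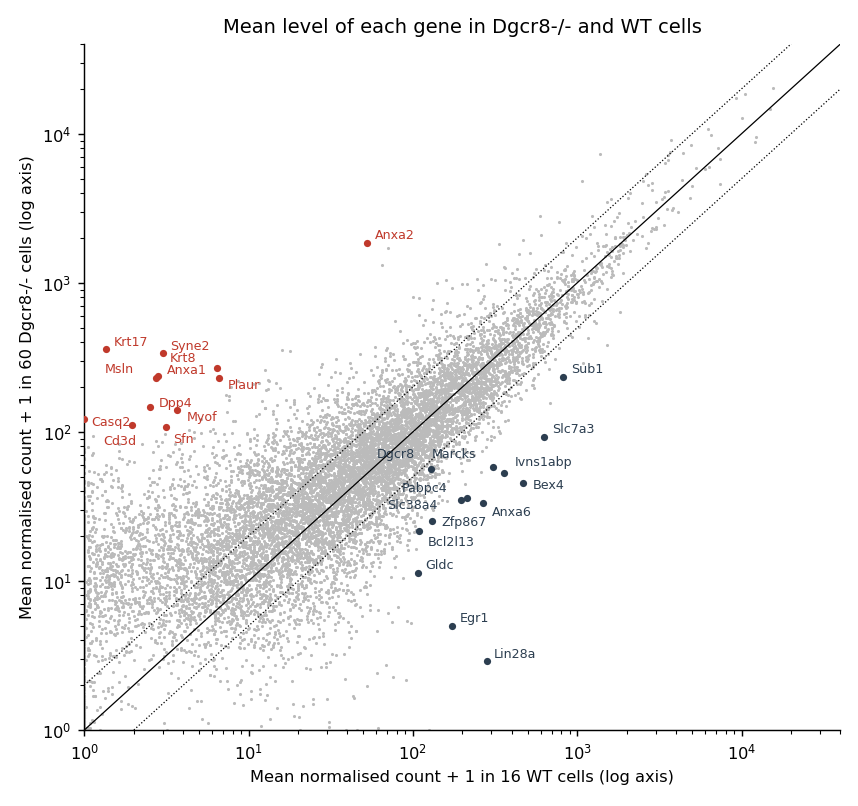
Mean normalised counts per cell in WT (x axis) and Dgcr8-/- cells (y axis), plus 1, both axes on a log scale, with 1 point per gene kept. The solid line marks equal means and the dotted lines a 2-fold ratio; the labelled genes include Krt17, Syne2 and Anxa2 above the lines and Lin28a, Egr1 and Bex4 below.

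Among genes with a mean of at least 100 in either group, the 12 with the highest ratios were Krt17, Casq2, Syne2, Msln, Anxa1, Dpp4, Cd3d, Krt8, Myof, Plaur, Anxa2 and Sfn. Krt17, a keratin of stratified and injured epithelia, averaged 357 (0 to 5057, median 113) in Dgcr8-/- cells and 0.36 (0 to 2.32) in WT cells. Casq2, the cardiac calcium store protein calsequestrin, averaged 122 (0 to 1192, median 15.4) and had no count in any WT cell, which makes it at least 694-fold higher against a floor of 3 counts over the WT group. Msln, the surface glycoprotein mesothelin, had medians of 81.7 (0 to 4904) and 0 (0 to 27.5). These genes were not evenly spread: 35 of 60 Dgcr8-/- cells had a count of Casq2, and 5 cells gave 50% of the Krt17 counts.

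Dpp4, a membrane dipeptidase also called CD26, had medians of 78.7 (0 to 685) and 0 (0 to 18.6), with 45 of 60 Dgcr8-/- cells above every WT cell. Cd3d, a chain of the T cell receptor complex, had medians of 94.1 (0 to 530) and 0 (0 to 15.4), and 44 of 60 cells lay above the WT range. Plaur, the receptor of urokinase plasminogen activator, had medians of 79.9 (0 to 2749) and 0.728 (0 to 23.7), with 46 cells above. Myof, a ferlin of membrane repair, was 51.5-fold higher and Sfn, the 14-3-3 sigma protein of epithelia, 50.7-fold higher. The mean of Anxa1 was 235, or 80.5 without the cell that stood apart, beside 1.82 in WT cells. It was counted in 39 of 60 Dgcr8-/- cells and 1 of 16 WT cells, with medians of 13.8 and 0.

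Cells high for one of these 12 genes were only in part those high for another. Over the 66 pairs, Spearman's rho across the 60 Dgcr8-/- cells had a median of 0.14, ran from -0.18 to 0.53, and was above 0 in 51 pairs. Plaur with Anxa2 and Krt8 with Anxa2 gave the highest values (both 0.53). The points share chip and depth scaling, so these are descriptions only.

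The 12 genes with the lowest ratios were Lin28a, Egr1, Bex4, Gldc, Anxa6, Slc7a3, Ivns1abp, Pabpc4, Slc38a4, Marcks, Zfp867 and Bcl2l13. Bex4, a small X-linked protein, had medians of 20.7 (0 to 230) in Dgcr8-/- cells and 442 (58.7 to 1285) in WT cells and was 10.6-fold lower, with 13 of 16 WT cells above every Dgcr8-/- cell. Slc7a3, a cationic amino acid transporter, had medians of 0 (0 to 1138) and 481 (32.5 to 1712). Slc38a4, an imprinted amino acid transporter, had medians of 0 (0 to 530) and 68.2 (0 to 897). Both transporters were more than 5-fold lower as means, by 6.85-fold and 5.72-fold. Egr1, an immediate early gene of ERK signalling, was counted in 2 of 60 Dgcr8-/- cells and 9 of 16 WT cells, with a WT median of 72.8 and a highest value of 1371. Pabpc4, a cytoplasmic poly(A)-binding protein, was 5.99-fold lower with medians of 7.3 (0 to 273) and 144 (12 to 616). Gldc, the glycine decarboxylase of the mitochondrial cleavage system, had a WT mean of 106 but a WT median of 1.4, with counts in 9 of 16 WT cells.

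None of these 12 lowest genes holds the miR-294-3p seed match in its 3′ UTR, and of the 12 highest only Dpp4 does. For comparison, 18.2% of all kept genes with an annotated 3′ UTR hold it. Most of the 12 highest genes have short 3′ UTRs, of 129 to 693 bases. Among the third of genes with the shortest 3′ UTRs (up to 723 bases) 3.64% hold the match. The 18.2% is therefore not a background matched for length.

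The miRNA machinery itself showed no common direction. Of 23 genes kept, 6 (26.1%) were higher and 2 (8.7%) lower, near the 30.3% and 8.74% of all genes. Without the 2 least similar cells the counts were 3 and 3. The list's median of 0.22 turned negative when TMM scaling was used or the median gene was set to 0. Drosha, the partner nuclease of DGCR8, averaged 192 and 209. Dicer1 averaged 55.4 and 46.3, and Ago2, the slicing Argonaute, 202 and 205, each a difference far below the spread over cells. The GW182 proteins, which link Argonaute to deadenylation, included 2 genes past 2-fold: Tnrc6b with 89.8 (median 54.2, 0 to 408) against 24.9 (5.75, 0 to 206), and Tnrc6a with 132 (83.5, 2.31 to 908) against 62.7 (26.8, 2.02 to 224). Both ranges overlapped widely.

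Of 20 transcripts written in the list of miRNA hosts, 16 are in the files and 6 passed the count filter. Their median log2 ratio was 2.09, and 1.82 for the 4 with a mean of at least 50. Most cells behind the filter are Dgcr8-/-, so the 10 that did not pass are not described and the 6 do not stand for the list. Mir17hg, the primary transcript of the miR-17 to miR-92a cluster, averaged 99.3 (0 to 666, median 38.2) in Dgcr8-/- cells and 21.4 (0 to 148, median 1.97) in WT cells, with 11 of 60 cells above the WT range. Rian and Meg3, noncoding RNAs of the imprinted Dlk1-Dio3 region, averaged 639 (median 355, 0 to 3009) against 157 (48.5, 0 to 826) and 203 (77.4, 0 to 2264) against 65.1 (25.4, 0 to 295). Mirg, the miRNA host transcript of the same region, had 3 counts in all WT cells together. This gives a ratio of summed counts of 94.8 (95% interval over reads 32.3 to 460.4). Dleu2, host of miR-15a and miR-16, had medians of 372 (46.2 to 3553) and 198 (68.5 to 493) and was 2.4-fold higher. Mir22hg had no count in most cells of both groups and averaged 19.2 and 1.16. Rian, Meg3 and Mirg share a locus and are not independent observations.

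Genes that the study takes from earlier arrays as miR-294 targets were more often higher than other genes. That list holds genes that were lower after miR-294 in Dgcr8-/- ESCs and carry a seed match, so it was made on other samples. Of 492 kept, 229 (46.5%) were at least 2-fold higher in Dgcr8-/- than in WT cells and 14 (2.85%) lower, beside 30.3% and 8.74% of all genes. Their median log2 ratio was 0.91 beside 0.35. Restricted to a mean of at least 50 counts over the 182 cells, 102 of 253 were higher and 6 lower, with a median of 0.78, beside 20.7% and 4.6% of all 5343 such genes. Under every scaling run the median of the list stayed above that of all genes.

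The 10 targets with the largest ratios were Rbl2, Cd109, Aldh3a2, Megf11, Ezh1, Rcor3, Zbtb41, Gpkow, Tmub2 and Lmbr1. Rbl2 encodes p130, a pocket protein that represses E2F genes in G1. It averaged 68.8 (0 to 630, median 1.31) in Dgcr8-/- cells, with a count in 32 of 60. All WT cells together had 2 counts, a ratio of summed counts of 488 (95% interval over reads 135 to 4031). Cd109, a surface protein that binds TGF-beta, was counted in 33 of 60 Dgcr8-/- cells at a mean of 52.1 and in no WT cell, at least 298-fold higher. Ezh1, a histone H3 lysine 27 methyltransferase, averaged 84.1 (0 to 1645, median 15) and 1.97 (0 to 18.3, median 0), and 57.7 without the cell that stood apart. Rcor3, a CoREST corepressor, had medians of 26.9 (0 to 458) and 0.663 (0 to 13.9), with 37 of 60 cells above every WT cell. Megf11, a membrane protein with EGF-like repeats, had medians of 12.5 (0 to 526) and 0 (0 to 13.5). Lmbr1 averaged 67.6 and 3.37.

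In the cells given miR-294, the means of these targets lay between those of the mock and WT cells: 5.72 for Rbl2, 5.68 for Cd109, 26.2 for Ezh1, 13.8 for Rcor3, 29 for Megf11 and 7.26 for Lmbr1. In let-7 cells they were 30.7, 167, 49, 103, 53.5 and 59.8 in the same order. The mock cells are the common control of these values, and the study used target levels in judging whether a transfected cell had taken up the mimic, so these values are not independent of that choice.

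The array list required a seed match in the 3′ UTR, so miR-294 matches were searched in the 3′ UTRs of Gencode M21. Of its 492 kept genes 404 (82.1%) hold one. Of the 10 targets with the largest ratios, Aldh3a2 and Megf11 hold none. Sites in some of these targets, in cell cycle regulators and in other array targets are listed. Each site is 24 bases of the sense strand in GRCm38, from Gencode M21 transcripts, with the match to bases 2 to 8 of miR-294 in capitals.
Rbl2, chr8:91123815-91123838, plus strand: tgtatttttcaataaAGCACTTat
Cdkn1a, chr17:29099813-29099836, plus strand: tcctcagacctgaatAGCACTTtg
Cdkn1a, chr17:29100485-29100508, plus strand: taccgtgggtgtcaaAGCACTTag
Lats2, chr14:57691085-57691108, minus strand: gtacagtatggaaagAGCACTTat
Lats2, chr14:57690986-57691009, minus strand: tgtgttgtatctgatAGCACTTgt
Casp2, chr6:42281543-42281566, plus strand: gtgatataacctagaAGCACTTgt
Twf1, chr15:94579693-94579716, minus strand: tactttttgaaaaatAGCACTTtt
Dazap2, chr15:100619527-100619550, plus strand: acatcacataccttcAGCACTTct
Ezh1, chr11:101192009-101192032, minus strand: attcatagagaacaaAGCACTTta
Cd109, chr9:78716103-78716126, plus strand: tttttcttttttgtaAGCACTTaa
Rcor3, chr1:192099144-192099167, minus strand: tagagcatttttgaaAGCACTTgt
Outside the capitals the flanks have little in common. Where the match is followed by T, as in Cdkn1a at its first site, Twf1 and Ezh1, the same bases also hold the miR-17-5p match GCACTTT.

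Twf1 and Dazap2 are array targets that were counted in nearly all cells. Twf1, an actin monomer-binding twinfilin, had a median of 2558 (944 to 5333) in Dgcr8-/- cells and 769 (363 to 1277) in WT cells and was 3.29-fold higher, with 54 of 60 cells above the WT range. Dazap2, a small proline-rich protein, had medians of 891 (13.3 to 1702) and 151 (0 to 436) and was 5.33-fold higher, with 55 of 60 cells above. In miR-294 cells Twf1 averaged 787 and Dazap2 112, beside 775 and 172 in WT cells. Casp2, an initiator caspase, had medians of 27 (0 to 529) and 0 (0 to 64.5) and was 15.9-fold higher, with a mean of 23.2 in miR-294 cells.

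**Figure D2:**
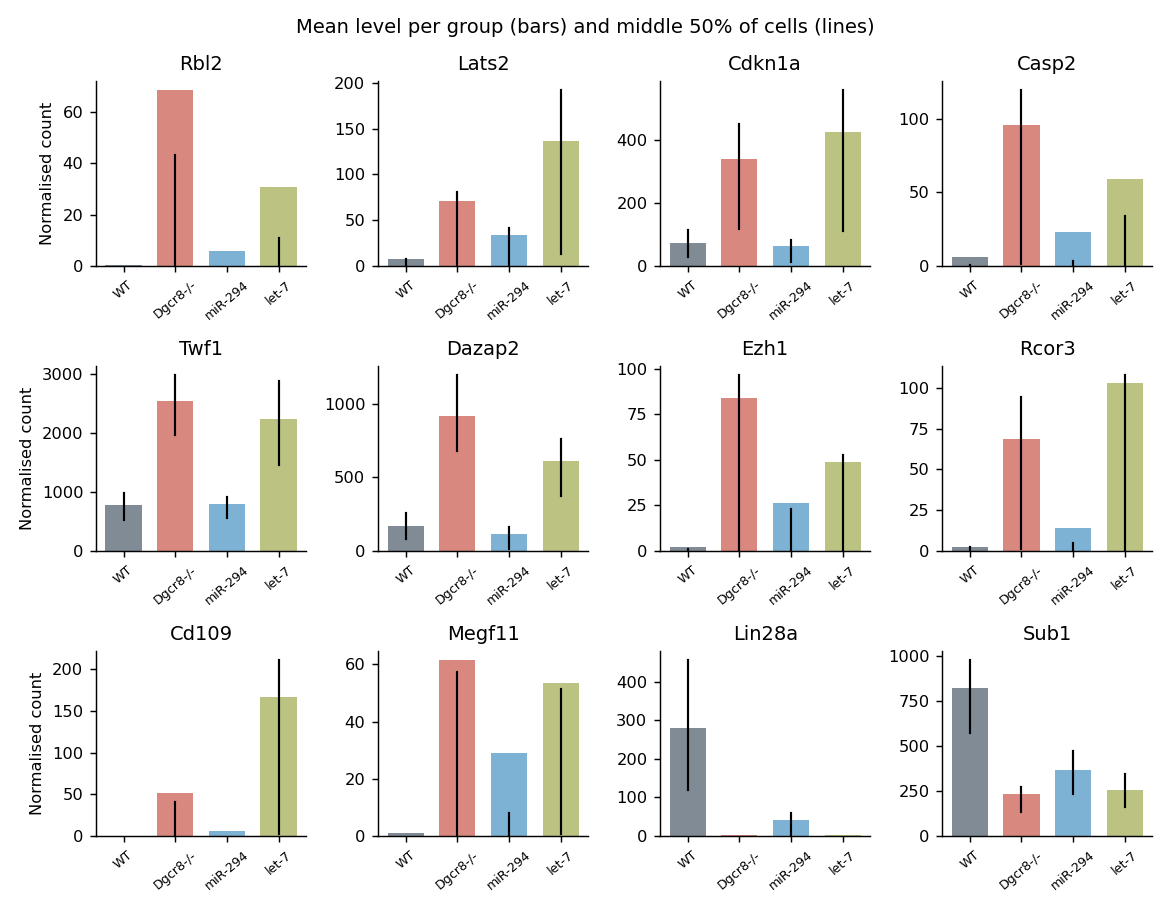
Mean normalised counts per cell (bars) and the middle 50% of cells (lines) in WT, mock Dgcr8-/-, miR-294 and let-7 cells for 12 genes. The array targets Rbl2, Casp2, Twf1, Dazap2 and Rcor3 are highest in the mock or let-7 cells and lower in miR-294 and WT cells, whereas Lin28a and Sub1 are highest in WT cells.

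Seed matches across all genes gave far smaller differences than the array list. Of the 11186 kept genes, 10298 (92.1%) have an annotated 3′ UTR, with a median length of 1199 bases. AGCACTT, searched on the sense strand, was present in 1875 of them (18.2%), whose median log2 ratio was 0.45, beside 0.33 for genes without it. By number of matches the median was 0.33 for none, 0.44 for 1, 0.53 for 2 and 0.44 for 3 or more (88 genes). Genes with the match have longer UTRs, with a median of 2514 bases beside 985. When genes were split by UTR length into 3 groups of nearly equal size, the medians with and without the match were 0.69 (125 genes) and 0.32 in the shortest group, 0.50 and 0.34 in the middle group, and 0.37 and 0.31 in the longest.

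The same comparison for 9 other families, whose RefSeq sequences were searched in the same way, gave a difference of medians of 0.19 for miR-17-5p (GCACTTT), 0.11 for miR-19b-3p (TTTGCAC) and 0.09 for miR-92a-3p (GTGCAAT). It was 0.04 for let-7c-5p (CTACCTC), 0.03 for miR-130a-3p, 0.01 for miR-148a-3p, -0.01 for miR-15a-5p, -0.02 for miR-26a-5p and -0.06 for miR-21a-5p. Another 3 families known from other tissues and added after the data had been seen gave -0.06 for miR-203-3p, -0.12 for miR-192-5p and -0.22 for miR-208a-3p, the last over 203 genes. Among genes with a mean of at least 50 counts the order differed, with 0.15 for miR-92a-3p, 0.14 for miR-17-5p and 0.11 for miR-294-3p. The 2 ESC seeds overlap in sequence: 869 genes hold both matches, and among genes without the miR-17-5p match the miR-294-3p difference was 0.06, whereas among genes without the miR-294-3p match the miR-17-5p difference was 0.18. Of the array targets 404 of 492 (82.1%) hold AGCACTT, and their median was 0.91 beside 1.02 for those without. A seed match is a description of letters in a UTR and not evidence of a bound site.

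**Figure D3:**
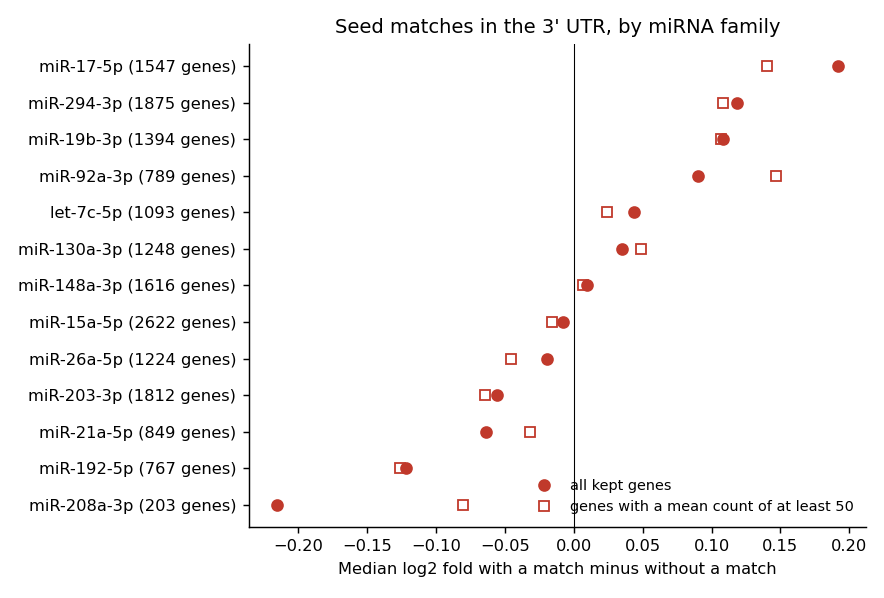
Difference in median log2 ratio (Dgcr8-/- over WT) between genes with and without a 7-base seed match in the 3′ UTR, for 13 miRNA families, over all kept genes (filled circles; number with a match in brackets) and over genes with a mean of at least 50 counts (open squares). Over all kept genes miR-17-5p (0.19) and miR-294-3p (0.12) have the largest differences, over the more abundant genes miR-92a-3p (0.15) and miR-17-5p (0.14), and the 3 families added afterwards lie below 0 in both.

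The array targets of let-7c had a median of 0.15, below that of all genes, which turned negative under 3 of the 4 other scalings. Of 169 kept, 34 (20.1%) were higher and 17 (10.1%) lower, beside 30.3% and 8.74% of all genes. The largest ratios in the list were of both signs. Klk10, a kallikrein protease, averaged 81.8 (0 to 651, median 26.1) in Dgcr8-/- cells and 0.636 in WT cells, where 1 cell held all counts. B3gnt7, a glycosyltransferase, had medians of 47.2 (0 to 354) and 3.67 (0 to 35.1) and was 7.11-fold higher. Usp38, a deubiquitinase, was 3.44-fold lower with medians of 12.4 (0 to 843) and 42.8 (0 to 1369). In let-7 cells Klk10 averaged 1.09 and B3gnt7 10.7.

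Of 17 genes that hold back the cell cycle, 9 (52.9%, beside 30.3% of all genes) were higher, none was lower and 8 were within 2-fold, 3 of the 17 being below 0. The median was 1.01. Without the cell that stood apart the counts were 8 and 2 and the median 0.60. Cdkn1a, the CDK inhibitor p21, had medians of 229 (0 to 2238) in Dgcr8-/- cells and 38.3 (0 to 198) in WT cells and was 4.73-fold higher, with 35 of 60 cells above the WT range. Lats2, a Hippo pathway kinase, averaged 70.9 (0 to 500, median 8.68) and 7.66 (0 to 56.9, median 0). Both, like Rbl2 above, are array targets with sites shown above. Btg2, an antiproliferative p53 target, had medians of 149 (0 to 2020) and 0 (0 to 254) and was 9.3-fold higher, but at 275 in miR-294 cells it was near its mock level of 306. Cdkn1b, the CDK inhibitor p27, averaged 10.9 and 6.68, and Btg1 266 and 276.

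Of 20 genes of the G1 to S transition, 7 (35%, beside 30.3% of all genes) were higher and 1 lower, a share near the background. The median was 0.58, and 0.18 for the 14 with a mean of at least 50, beside 0.22 for all such genes. The D-type cyclins and their kinase partner were among them. Ccnd1 had medians of 417 (0 to 1408) and 96.8 (0 to 306), with 36 of 60 cells above every WT cell. Cdk6 had medians of 528 (101 to 1680) and 111 (2.79 to 425), with 41 of 60 above. Ccnd2 averaged 54.3 and 1.62, though its median was 0 in both groups. Ccne1, the E-type cyclin of the next step, lay the other way without reaching 2-fold, at 96.4 (0 to 1157) and 171 (0 to 1031).

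Replication genes were close to equal, with 1 (4.17%) higher and 2 (8.33%) lower of 24 and a median of -0.01. All 24 have a mean of at least 50, where 20.7% of genes were higher and 4.6% lower. Mcm2 and Mcm5, subunits of the replicative helicase, averaged 444 and 672 in Dgcr8-/- cells and 309 and 770 in WT cells. The exception was Nasp, a histone chaperone, with medians of 626 (44.8 to 1826) and 1775 (971 to 2772). It was 2.87-fold lower, and 53 of 60 Dgcr8-/- cells lay below the lowest WT cell. 

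Mitosis genes were lower more often than higher: 5 of 31 (16.1%) were past 2-fold lower and 1 (3.23%) higher. The shares of all genes were 8.74% and 30.3%. Among genes with a mean of at least 50, as all 31 have, they were 4.6% and 20.7%. The list's median of -0.55 was below 0 under every scaling. Cenpf, a kinetochore protein, had medians of 86.2 (0 to 667) and 423 (12.7 to 1274) and was 2.76-fold lower. Ccnb1, the mitotic cyclin B1, had medians of 360 (0 to 3899) and 1086 (146 to 2799). Cdc25b, a phosphatase that activates CDK1, was the gene past 2-fold higher, at 56.1 and 6.26. Fewer cells in a phase and less mRNA in each cell of that phase were not told apart.

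Naive pluripotency factors did not move together. Of 26 kept, 5 (19.2%) were higher and 2 (7.69%) lower, beside 30.3% and 8.74% of all genes. Of the 24 with a mean of at least 50, 5 were higher and 1 lower. Among all such genes the shares were 20.7% and 4.6%, so the list is near its background. The median of 0.20 turned negative under TMM scaling or when the median gene was set to 0. Pou5f1, the factor OCT4, had medians of 374 (0 to 1283) and 123 (45.6 to 353), with 32 of 60 Dgcr8-/- cells above the WT range. Prdm14, a repressor of FGF signalling and of DNA methylation, averaged 95.4 (0 to 1216, median 3.4) and 15.8 (0 to 60.4). Klf2 had medians of 93 (0 to 542) and 35.5 (0 to 113). On the other side, Tcl1, an AKT cofactor, had medians of 12.7 (0 to 669) and 231 (0 to 886) and was 3.38-fold lower. Nanog averaged 701 and 847, Sox2 71.4 and 48.8, and Klf4 113 and 189, none of them past 2-fold.

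Of 24 genes of primed or early differentiated cells, 12 passed the count filter, 4 of them with 1 group at 0. Of these 12, 9 (75%) were higher and 1 (8.33%) lower, beside 30.3% and 8.74% of all genes. Their median was 2.55, and the filter favours genes counted in Dgcr8-/- cells, as stated above. The median was 1.60 without the cell that stood apart, 1.61 without the 2 least similar cells, and 0 with medians over cells in place of means. Otx2, a factor of the primed epiblast, averaged 13.4 and had no WT count. Nodal, the ligand that maintains the primed state, had medians of 45 (0 to 429) and 1.13 (0 to 217) and was 2.74-fold higher. Eomes, a T-box factor of mesoderm and trophoblast, was the lower one, counted in 18 of 60 Dgcr8-/- and 13 of 16 WT cells, at means of 23.3 and 90.1.

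The enzymes of DNA methylation had a median of -0.02. Of 15 genes 2 (13.3%) were higher and 1 (6.67%) lower, beside 30.3% and 8.74% of all genes. Dnmt3b, a de novo methyltransferase, was the lower gene, with medians of 20.2 (0 to 745) and 216 (0 to 1636), a 3.41-fold ratio of means. Dnmt3a averaged 63.3 and 111, Dnmt3l 474 and 697, and Uhrf1, which guides maintenance methylation, 737 and 1214. Tet2, an enzyme that oxidises 5-methylcytosine, averaged 795 and 487. None of these 4 reached 2-fold. Dnmt3b is on the let-7c array list, and in let-7 cells it averaged 47.6.

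Annexins and S100 proteins are calcium-binding partners at membranes. Of 18 written, 12 passed the filter, which favours genes counted in Dgcr8-/- cells, with a median of 2.47 (1.74 with medians over cells). Of these, 10 (83.3%) were higher and 1 (8.33%) lower, beside 30.3% and 8.74% of all genes. Anxa3 had medians of 257 (0 to 2735) in Dgcr8-/- cells and 0 (0 to 92.7) in WT cells, with 50 of 60 cells above every WT cell. Anxa4 had medians of 269 (3.29 to 3278) and 27.1 (0 to 209), with 40 of 60 above. Anxa5 averaged 53.2 and 7.69. S100a6 had 1 count in all WT cells, a ratio of summed counts of 547 (95% interval over reads 98 to 21610.3). It averaged 43 in Dgcr8-/- cells, or 24.9 without the cell that stood apart. S100a10, the usual partner of annexin A2, was equal at 83.7 and 83.3. Anxa6 was the one lower gene, with medians of 0 (0 to 529) and 101 (0 to 1286) and counts in 10 of 60 and 13 of 16 cells.

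Of 20 epithelial genes written, 15 passed the filter. They had a median of 2.61 with 11 (73.3%) higher and 1 (6.67%) lower, beside 30.3% and 8.74% of all genes. Of the 15, 3 had 1 group at 0, and the filter favours genes counted in Dgcr8-/- cells, as stated above. With medians over cells in place of means, the list's median was 0. Without the 2 least similar cells the median was 0.95 with 7 higher. Without only the cell that stood apart it was 1.08 with 8 higher and 1 lower. Krt18 averaged 162 with this cell and 26.8 without it, beside 17.9 in WT cells, and its median was 0 in both groups. Krt8, its partner keratin, had medians of 84.5 (0 to 6012) and 0 (0 to 47.2) and was above the WT range in 33 of 60 cells. Its mean of 269 became 172 without that cell. Cldn4, a tight junction claudin, averaged 112 with and 49.7 without it, beside 31.1 in WT cells. Cdh1, the E-cadherin of ESC adhesion, was close to equal at 800 (68.8 to 2752) and 703 (163 to 1855).

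Of 22 mesenchymal genes written, 15 passed the filter, with a median of 2.19 (1.92 without that cell, and 0.50 with medians over cells). The filter favours genes counted in Dgcr8-/- cells here too. Of the 15, 11 (73.3%) were higher and none lower, beside 30.3% and 8.74% of all genes. Vim, the intermediate filament vimentin, had medians of 637 (0 to 2608) and 170 (0 to 468), with 41 of 60 cells above the WT range. Sparc, a secreted matrix protein, had medians of 1104 (154 to 7297) and 196 (0.965 to 686), with 48 of 60 above. Zeb1, a repressor of E-cadherin, averaged 59.7 (0 to 449) and 10.4 (0 to 72.4). In let-7 cells Vim averaged 2007 and Sparc 2818. Of the 16 fibroblast markers, 9 had a count in Dgcr8-/- cells and 4 in WT cells, with summed levels of up to 127 and 21.7. The collagens Col1a2 and Col3a1 were at 0 in both groups, and Col1a1 was counted in 4 of 60 and 1 of 16 cells. The part of such RNA in these values was not tested.

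Of 38 actin genes, 17 (44.7%, beside 30.3% of all genes) were higher and none lower (median 0.84), with 14 higher without the cell that stood apart and 12 without the 2 least similar cells. Tagln2, an actin-bundling transgelin, had medians of 848 (24.4 to 4138) and 161 (0 to 712), with 36 of 60 cells above the WT range. Cfl1, the actin-severing cofilin, averaged 649 and 311, and Cfl2 142 and 92.6. At the nuclear envelope the list of 16 had a median of -0.05. Of these, 6 (37.5%) were higher and 1 (6.25%) lower, beside 30.3% and 8.74% of all genes. The 9 with a mean of at least 50 had a median of 1.08 with 5 higher and none lower, beside 20.7% and 4.6% of all such genes. Beside Syne2, Lmna, lamin A/C, had medians of 123 (0 to 4161) and 9.96 (0 to 172), and Sun1, an inner membrane anchor of nesprins, averaged 219 and 103.

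**Figure D4:**
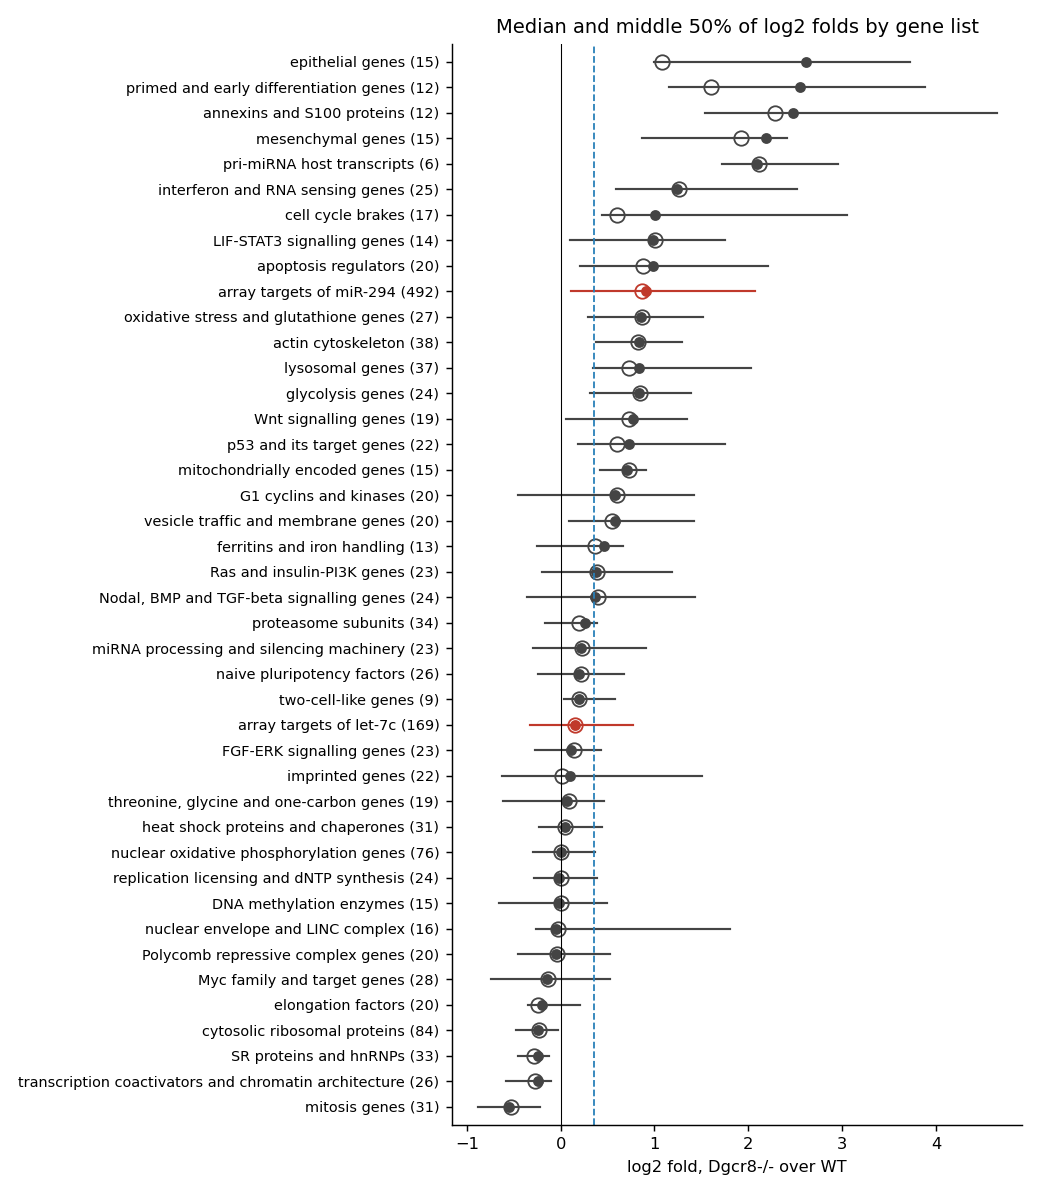
Median log2 ratio (filled dots) and middle 50% of genes (lines) for each gene list with at least 5 genes kept, with the median without the least similar Dgcr8-/- cell as open circles, the number of genes in brackets and the median of all genes (0.35) as a dashed line. Epithelial, primed, annexin and S100, mesenchymal and miRNA host lists lie farthest to the right, and mitosis genes farthest to the left.

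Of 36 interferon and RNA sensing genes written, 25 passed the filter, of which 14 (56%, beside 30.3% of all genes) were higher and none lower, with a median of 1.24. For the 16 with a mean of at least 50 the median was 0.91 with 7 higher. Of the 25, 2 had 1 group at 0, and the filter favours genes counted in Dgcr8-/- cells. Oas1a, an enzyme that senses double-stranded RNA, had medians of 131 (0 to 885) in Dgcr8-/- cells and 0 (0 to 81.6) in WT cells, with 42 of 60 cells above every WT cell. H2-D1, an MHC class I heavy chain, had medians of 22.9 (0 to 647) and 0 (0 to 77.2). Irf9 and Irf1, interferon regulatory factors, averaged 87.8 and 103 in Dgcr8-/- cells and 14.5 and 25.9 in WT cells, with wide overlap. The sensors of RNA and their adaptor differed less: Ddx58, the helicase RIG-I, averaged 290 and 184, and Mavs 88.3 and 49.3, neither past 2-fold. The classic induced genes Isg15, Ifit1, Ifit2 and Ifit3, written in the list but below the count filter, stayed under a mean of 1 in both groups. They are named because of that, after their values were seen. The proteasome activator subunits Psme1 and Psme2, which serve antigen processing, were 3.13-fold and 3.9-fold higher, with Psme2 above the WT range in 34 of 60 cells. The proteasome list itself had 3 of 34 genes (8.82%) higher and none lower. All 34 have a mean of at least 50, where 20.7% of genes were higher and 4.6% lower.

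Lysosomal genes were higher in 18 of 37 cases (48.6%, beside 30.3% of all genes) and lower in 2 (median 0.84). Ctsa, a lysosomal carboxypeptidase, had medians of 782 (5.9 to 3333) and 45.5 (0 to 743), with 32 of 60 cells above every WT cell. Ctsb, a cysteine protease, had medians of 656 (0 to 19194) and 135 (0 to 473), with 41 of 60 above, and its mean of 1039 was 731 without the cell that stood apart. Gusb, beta-glucuronidase, rested on few cells, with a log2 ratio of 4.20 that was 2.40 without the cell that stood apart and a median of 1.87. Grn, progranulin, had medians of 470 (3.27 to 6637) and 16.9 (0 to 701). Of 20 vesicle and membrane genes 7 (35%, near the 30.3% of all genes) were higher and none lower. Among them Slc39a1, a zinc importer, had medians of 133 (17.7 to 1094) and 18.8 (4.89 to 61.7), with 52 of 60 cells above the WT range.

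Apoptosis regulators were higher in 10 of 20 cases, or 8 without the cell that stood apart, and lower in none (median 0.99). The share was 50% beside 30.3% of all genes, although with medians over cells the list's median was 0. They included genes that promote death and genes that prevent it. Besides Casp2, Pmaip1, the BH3-only protein NOXA, had medians of 24.1 (0 to 1094) and 0 (0 to 171), and Bcl2l1, which encodes BCL-XL, had medians of 61.5 (0 to 569) and 13.1 (0 to 225). Of 22 p53 pathway genes 9 (40.9%) were higher and 1 lower (median 0.73). Trp53 itself had medians of 2397 (267 to 5054) and 1419 (399 to 3126), a 1.67-fold ratio, and Mdm2, its ubiquitin ligase, averaged 198 and 212. Tnfrsf10b, a death receptor, was 3.52-fold higher. Cdkn1a, Btg2 and Pmaip1 belong to 2 of these lists each.

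Glycolysis genes had a median of 0.83 with 8 of 24 (33.3%, near the 30.3% of all genes) higher and 1 lower. The phosphofructokinases Pfkm and Pfkl, which catalyse the committed step, averaged 149 and 166 in Dgcr8-/- cells and 22.4 and 33.6 in WT cells. Aldoc, an aldolase, was 10.2-fold higher. The lower gene was Slc2a3, the glucose transporter GLUT3, with medians of 466 (16 to 1719) and 1079 (530 to 2368) and 39 of 60 Dgcr8-/- cells below the lowest WT cell. Abundant enzymes stayed under 2-fold: Ldha, lactate dehydrogenase, averaged 4219.9 and 2837, and Hk2, a hexokinase, 1857 and 1326.

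Nuclear genes of oxidative phosphorylation were centred on 0, with 6 of 76 (7.89%) higher and 3 (3.95%) lower. The 15 mitochondrially encoded genes had a median of 0.71 with 3 (20%) higher, or 2 without the 2 least similar cells. All genes of both lists have a mean of at least 50, where 20.7% of genes were higher and 4.6% lower. The 20% is thus near the background. mt-Co3, a cytochrome oxidase subunit, had medians of 6576 (0 to 35034) and 3443 (862 to 7731), and the mitochondrial share of counts given above differed in the same direction; its part in these values was not tested.

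Serine and glycine genes pointed both ways, with 2 of 19 (10.5%) higher and 4 (21.1%) lower, beside 30.3% and 8.74% of all genes. Of the 18 with a mean of at least 50, 2 were higher and 3 lower, beside 20.7% and 4.6% of all such genes. Phgdh, which opens serine synthesis, had medians of 4.65 (0 to 862) and 187 (3.71 to 1177) and was 3.18-fold lower, and Psph, which closes it, was 2.86-fold lower. Of the glycine cleavage system, Gldc was lower, as given above, while Amt was higher, with medians of 413 (13.2 to 1688) and 130 (20.4 to 309) and 46 of 60 cells above the WT range. Tdh, the threonine dehydrogenase on which mouse ESCs depend, averaged 1144 and 799.6.

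Redox genes were higher in 11 of 27 cases (40.7%, beside 30.3% of all genes) and lower in 2 (median 0.85). Mt1 and Mt2, the metallothioneins, had medians of 1543 (295 to 6729) and 406 (81.5 to 1126) in Dgcr8-/- cells, and of 173 (51.1 to 1513) and 94.4 (36.3 to 544) in WT cells. The glutathione transferases Gsto1 and Gstm2 were 7.67-fold and 5.13-fold higher. Gclc, which makes the glutathione precursor, was lower by 3.14-fold with medians of 0 and 15.4. Srxn1, which restores peroxiredoxins, had its highest value of 3097 in the cell that stood apart, and its mean of 73.8 was 22.6 without it.

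Of 14 genes of the LIF pathway, which sustains self-renewal, 7 (50%, beside 30.3% of all genes) were higher and none lower (median 0.99), but with medians over cells the list's median was 0. Il6st, the shared receptor gp130, had medians of 38.9 (0 to 920) and 7.4 (0 to 73.1), and Jak1, its kinase, had medians of 143 (5.47 to 809) and 30.5 (0 to 150), with 29 of 60 cells above every WT cell. Stat3, their target factor, averaged 155 and 89, and Lifr 170 and 141. In the Wnt pathway 9 of 19 (47.4%) were higher and none lower (median 0.77). Tcf7l2, a DNA-binding partner of beta-catenin, had medians of 216 (0 to 696) and 17.7 (0 to 172), with 38 of 60 cells above the WT range, whereas Ctnnb1, beta-catenin, averaged 599 and 497 and the target Axin2 9.74 and 7.99. The medium holds a GSK3 inhibitor for both groups.

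FGF and ERK genes had 1 of 23 (4.35%) higher and 3 (13%) lower, beside 30.3% and 8.74% of all genes. Without the cell that stood apart 2 were lower. Those lower were Egr1, Dusp6 and Etv4, all known as genes induced by ERK, and Etv4 is named after its value was seen. The list also held 19 genes within 2-fold, among them Spry2, Spry4 and Spred1 with log2 ratios of 0.22, -0.22 and 0.50. Dusp6, an ERK phosphatase, averaged 11.4 (0 to 162, median 0) and 47.8 (0 to 292, median 10.2). Fgf4, the ligand, averaged 223 and 174. In let-7 cells Egr1 averaged 157 and Dusp6 154, while in miR-294 cells they averaged 21.8 and 8.51. Among 24 Nodal, BMP and TGF-beta genes 8 (33.3%) were higher and 2 (8.33%) lower, near the 30.3% and 8.74% of all genes. The 12 with a mean of at least 50 had a median of 1.01 with 6 higher and none lower. Among all such genes the median was 0.22, with 20.7% higher and 4.6% lower. Id1, a BMP target, had medians of 38.6 (0 to 660) and 3.84 (0 to 73.6), with 23 of 60 cells above. Among 23 Ras and PI3K genes 9 (39.1%, beside 30.3% of all genes) were higher and 2 (8.7%) lower, including Akt2 at 86.6 and 11.9 and Tsc2, a brake on mTORC1, at 101 and 16.

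Myc family and target genes had a median of -0.15. Of 28 genes 5 (17.9%) were higher and 4 (14.3%) lower, beside 30.3% and 8.74% of all genes. The family members differed: Mycn averaged 103 (median 47.9) and 30.3 (14.9), and Myc 10.5 (0) and 39.6 (1.27), the latter with 1 WT cell at 452. Odc1, the polyamine enzyme and a textbook MYC target, had medians of 217 (7.03 to 1823) and 969 (6.97 to 2122) and was 3.75-fold lower. Fbl, the nucleolar methyltransferase fibrillarin, had medians of 72.1 (0 to 399) and 211 (15.3 to 606). Polycomb genes had a median of -0.05 with 3 of 20 (15%) higher and none lower, beside the same 30.3% and 8.74%. Of the 2 catalytic subunits Ezh2 averaged 340.3 and 424, and Ezh1 was the array target given above.

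Genes of RNA handling and translation lay slightly below 0. SR proteins and hnRNPs had 0 of 33 higher and 4 (12.1%) lower (median -0.24). Coactivators and chromatin architecture genes had 0 of 26 higher and 2 (7.69%) lower (-0.25). Ribosomal proteins had 1 of 84 (1.19%) higher and 1 (1.19%) lower (-0.24). Of all genes 30.3% were higher and 8.74% lower. Most genes of these lists have a mean of at least 50, where the shares were 20.7% and 4.6%. The 2 lower coactivator genes were Sub1 and Hmgn2, a nucleosome-binding protein with medians of 246 (0 to 905) and 657 (266 to 1047). Srsf4, a splicing factor, averaged 55 and 149. Eef2, the translocation factor of the ribosome, was the 1 of 20 elongation factor genes past 2-fold higher, with medians of 1609 (165 to 4862) and 786 (369 to 1742).

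Among the nuclear chromosomes median log2 ratios ran from 0.20 for chromosomes 18 and 19 to 0.46 for chromosome 7. The 15 mitochondrially encoded genes stood at 0.71, as given above. Imprinted genes, 22 kept, had 7 (31.8%) higher and 2 (9.09%) lower, near the 30.3% and 8.74% of all genes. Without the 2 least similar cells the counts were 6 and 4. Their median was 0.10, and its sign depended on the scaling. The 2-cell-like list had 2 of 9 (22.2%, beside 30.3% of all genes) higher, with Zscan4c at a mean of 6.92 and 0.329.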

How the data were processed

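Single-cell RNA-seq libraries had been made on a Fluidigm C1 chip with Nextera XT. Per the labels and the study's methods, the authors aligned reads and estimated expected counts per gene with RSEM 1.2.19 on GRCm38 with Gencode M4, and deposited 1 file per run. The deposited FPKM column was not used. Here expected counts were summed per cell over its runs and rounded, and each cell was scaled by the median ratio over the 862 genes counted in all 182 cells. Genes with a mean of at least 5 were kept. Ratios are log2 of group means plus 1. Symbols and 3′ UTRs came from Gencode M21, miRNA sequences from RefSeq (GRCm38.p6). Intervals are exact (binomial, Poisson, 95%), and those of summed counts treat reads as independent. The scripts ran in Python 3.11.15, and edgeR 4.0.16 gave TMM scaling as an alternative only. The steps were tested on simulated data.

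Named genes are Dgcr8, the 4 markers, the 12 highest and 12 lowest ratios with a mean of at least 100 in either group and a median over cells of the same sign, the first 4 and up to 4 further members of each list with a mean of at least 50, and the 10 largest target ratios. The members and lists were chosen with earlier results of these data known. The families of miR-124-3p, miR-1a-3p and miR-122-5p were not analysed here. Alternatives were other scalings, filters, pseudocounts, medians over cells, summed counts, single runs, deeper cells and counts thinned to 500000 per cell. Results on some items are not reported here.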

Additional observations from a re-analysis of the deposited data

How the results depend on the processing

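No paired analysis was possible because the replicate numbers in the labels mark runs of a cell, and no test was made. With 1 culture per group, no alternative addresses the variation between cultures, and depth limits what can be said of genes near 0. Beside 3390 genes higher and 978 lower, the counts were 1108 and 246 at a mean of at least 50 (fewer genes tested) and 2093 and 574 with a pseudocount of 10. Genes lower were 1578 with no filter and 1698 when the median gene was set to 0. The other alternatives kept both counts within 1.5-fold. The target medians stayed within 1.5-fold under all alternatives run. That margin cannot decide whether the difference by miR-294-3p seed match is stable, because it is wider than the difference itself (0.12). The difference was 0.15 with a match of 6 bases and 0.11 among genes with a mean of at least 50. By 3′ UTR length it was 0.37 in the shortest group, 0.16 in the middle group and 0.065 in the longest. Leaving out the least similar Dgcr8-/- cell, the 2 least similar, or filtering on the 2 group means, all chosen after seeing the data, moved the primed list to 1.60, 1.61 and 3.69 from 2.55, and leaving out cells moved the epithelial list to 1.08 and 0.95 from 2.61. Of 180 named genes, 75 kept their ratio within 1.5-fold under all 16 alternatives. With medians over cells, the epithelial, primed, apoptosis and LIF medians were 0 and mitosis genes -1.23.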

Other observations

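Slfn9, the 1 Schlafen gene kept, averaged 5.71 in Dgcr8-/- cells and 80.4 in WT cells, a log2 ratio of -3.60, but its medians were 2.67 and 4.34 and the WT mean rested on a cell at 830. It was counted in 50 of 60 Dgcr8-/- and 15 of 16 WT cells. Slc40a1, the iron exporter ferroportin, averaged 34.7 in Dgcr8-/- cells and was at 0 in WT cells, but only 4 of 60 cells had a count and the highest held 1616. Slc40a1 is named after its values were seen.

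Of 31 heat shock proteins and chaperones, 5 (16.1%) were higher and 1 (3.23%) lower. All 31 have a mean of at least 50, where 20.7% of genes were higher and 4.6% lower. Their median was 0.04, with a sign that depended on the scaling, beside 0.35 for all genes. Among those higher, Calr, calreticulin, had medians of 1111 (153 to 2917) in Dgcr8-/- cells and 380.4 (19.5 to 1145) in WT cells, and Pdia3, a disulfide isomerase, 679 (7.76 to 1565) and 222 (15.7 to 856). The small heat shock proteins Hspb8 and Hspb1 were 4.32-fold and 2.87-fold higher, while Hspa8, Hsp90aa1 and Hsp90ab1 stayed under 2-fold.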
